A study of Mus musculus with 24 samples.

Results

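Bone morphogenetic proteins (BMPs) are secreted signals, and 10 genes of their pathway were followed in mouse lacrimal gland (LG) and in spheres of lacrimal gland stem cells (LGSCs). The genes were listed by name and matched by Ensembl identifier, which gave 10 of the 63862 genes in the tables. They were the ligands Bmp2, Bmp4 and Bmp7, the receptors Bmpr1a and Bmpr2, the secreted antagonists Nog (noggin) and Grem1 (gremlin 1), and the target genes Id1, Id2 and Id3. All 10 had a row in every library. A wider list of 49 other BMP ligands, receptors, antagonists, SMADs and targets was read beside them.

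The RNA was from C57BL/6 mice. Whole LG was collected from embryos at the stages E17.5 and E19.5, named by embryonic day, and from adults, with 3 libraries each. LGSC spheres were grown from the LGs of 6- to 8-week-old mice in Matrigel without serum, in medium with EGF, FGF10, Wnt3A and the ROCK inhibitor Y-27632, and were sequenced in passage 2 after 5 days (2 libraries), 7, 10 and 14 days (3 libraries each). A single library came from day 7 spheres of passage 10, while replicate 3 of day 5 and passages 6 and 20 were not analysed here.

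A BMP dimer binds a complex of type I and type II receptors, which phosphorylates SMAD proteins that enter the nucleus with Smad4. The Id genes, which encode inhibitors of basic helix-loop-helix transcription factors, are among the best known direct targets. Noggin and gremlin bind BMPs outside the cell and keep them from their receptors, and in branching glands ligands and antagonists come from both epithelium and mesenchyme.

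Values were read as FPKM, fragments per kilobase of gene length scaled to the depth of the library. This unit is meant for setting levels side by side between genes, but the listed values may not allow it here. Of 7986 genes with at least 5 FPKM at passage 10, 48.6% had a passage 2 day 7 mean under 0.1 times that value. Differences in level between genes are therefore given as listed. The 20 passage 2 and tissue libraries held 6434734 to 9258020 reads recovered from the values, and the passage 10 library 25181804. At this depth the lowest members rested on few reads, with at most 4 for Bmp2, 15 for Bmp7 and 20 for Bmpr2 in any of the 20 libraries. Neither the labels nor the methods say that the replicates came from separate animals or cultures, so the tests below measure the spread between these libraries, which may be technical. The adult libraries stood apart, with 60.4%, 59.6% and 31.3% of their reads in the 10 genes of highest count, against at most 8.07% in the others. Reads were 2.67, 2.57 and 1.1 times the scale of the deposited values in adult replicates 1 to 3 and 0.832 to 1.13 times in the other 17 libraries, and values that change under another scaling are marked.

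Cell type markers were checked against the labels. The acinar markers Aqp5, Ltf, Bhlha15 and Mucl2 summed to 171258 to 807364 FPKM in adult LG, nearly all of it Mucl2, and to 0 to 46.0 FPKM in embryonic LG, and Bhlha15 was listed at 0 in all 20 libraries. Mesenchymal markers summed to 4699 to 5673 FPKM in embryonic LG, 164 to 322 FPKM in adult LG and 0.263 to 1.41 FPKM in the spheres. Endothelial markers summed to 60.6 to 116 FPKM, 26.4 to 79.7 FPKM and 0 to 0.130 FPKM in the same order, in tissue nearly all of it Cdh5. Pecam1 and Kdr had higher means in adult LG. Mean Pecam1 was 0.101 FPKM at E17.5, 0.130 FPKM at E19.5 and 0.437 FPKM in adult LG. Mean Kdr was 0.0687, 0.0248 and 0.192 FPKM in these groups. The basal keratin Krt14, a marker of the stem cells, was 3.35 to 17.8 FPKM in passage 2 spheres against 7065 FPKM in passage 10, and the epithelial markers Epcam and Krt8 were listed at 0 in all 20 libraries. These zeros bear on the BMP genes too, as the passage 10 values below show. In bulk RNA, fewer cells of a type and less RNA per cell cannot be told apart.

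The 5′ flanks of Bmp4 and Grem1 are shown because these windows overlapped no exon annotated in GENCODE. Both sequences are the 250 bases before the transcription start in the RefSeq table (build GRCm38.p6, minus strand, printed 5′ to 3′ on the gene's strand). Capitals mark GGCGCC, a palindrome, and CAGAC or its reverse complement GTCTG, which are motifs known from SMAD binding, and they do not overlap each other here. The Bmp4 flank lies at chr14:46390670-46390919 and the Grem1 flank at chr2:113758649-113758898.
Bmp4: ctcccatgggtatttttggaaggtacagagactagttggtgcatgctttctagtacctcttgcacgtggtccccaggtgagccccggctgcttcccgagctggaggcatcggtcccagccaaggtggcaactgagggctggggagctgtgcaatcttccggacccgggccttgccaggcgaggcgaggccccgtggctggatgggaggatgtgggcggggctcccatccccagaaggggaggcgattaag
Grem1: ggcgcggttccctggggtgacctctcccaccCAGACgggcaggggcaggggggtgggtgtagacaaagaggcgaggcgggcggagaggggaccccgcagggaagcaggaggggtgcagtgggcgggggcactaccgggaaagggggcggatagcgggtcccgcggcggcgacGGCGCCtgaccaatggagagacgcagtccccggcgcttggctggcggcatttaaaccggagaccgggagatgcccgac
The Grem1 flank held GGCGCC with its first base 78 bases before the start and CAGAC with its first base 219 bases before it, and the Bmp4 flank held neither. Of 32851 promoters of the same length in the table, 9.59% held GGCGCC, 42.2% held CAGAC or GTCTG and 3.60% held both. A match of these letters is a description and no binding site, and 6 of the 10 members were in the table.

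**Figure D1:**
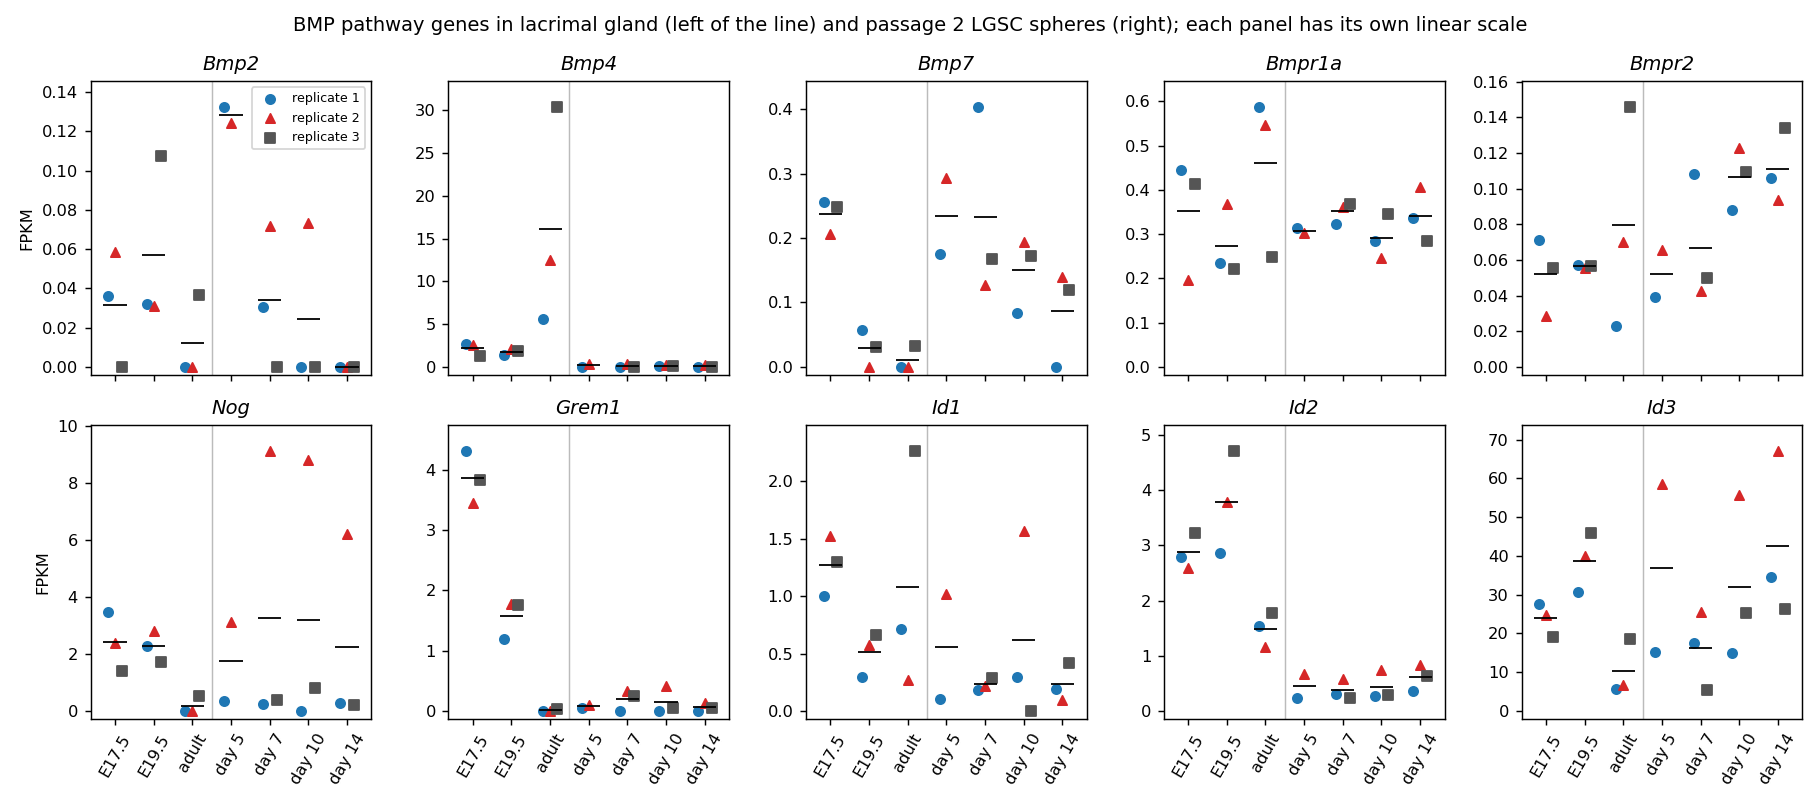
FPKM (linear scale, one per panel) of the 10 members in each of the 20 passage 2 and tissue libraries; points are libraries, marked by replicate number, and bars are group means. Bmp4 was highest in adult LG, Grem1 and Id2 were higher in embryonic LG than in any sphere library, and Nog in the spheres was above 3 FPKM in the 4 replicate 2 libraries and under 0.9 FPKM in the other 7.

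Among the 3 ligands, only Bmp4 was listed above 0.5 FPKM in any of the 20 libraries. Bmp4 (ENSMUSG00000021835, chr14:46383520-46390669, minus strand in GENCODE M21, GRCm38), a ligand made by mesenchyme around many budding epithelia, was 5.59, 12.5 and 30.4 FPKM in adult LG. It was 2.66, 2.61 and 1.24 FPKM at E17.5 and 1.39, 2.10 and 1.89 FPKM at E19.5. The adult libraries were all above the embryonic ones, although they spanned more than 5 FPKM to 30 FPKM among themselves, and the 2 embryonic stages overlapped. In the spheres Bmp4 was listed at 0 and 0.398 FPKM at day 5, at 0, 0.345 and 0 FPKM at day 7, at 0.102, 0.175 and 0.156 FPKM at day 10 and at 0, 0.253 and 0 FPKM at day 14. Every sphere library was therefore below every tissue library, and the sphere days overlapped with each other.

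Bmp2 (ENSMUSG00000027358, chr2:133552159-133562885, plus strand), a ligand close to Bmp4 in sequence, did not exceed 0.132 FPKM in any of the 20 libraries and was listed at 0 in 9 of them, day 14 included. Its day 5 libraries, 0.132 and 0.124 FPKM, rested on 4 and 3 reads. Bmp7 (ENSMUSG00000008999, chr2:172868012-172940321, minus strand), a ligand of another branch of the family that many epithelia make, was 0.256, 0.207 and 0.249 FPKM at E17.5, which is 8 reads in each library. It was 0.0569, 0 and 0.0317 FPKM at E19.5 and 0, 0 and 0.0326 FPKM in adult LG, so that E17.5 stood above both without overlap. In the spheres Bmp7 ranged from 0 to 0.403 FPKM with a median of 0.167 FPKM over 11 libraries. Neither Bmp2 nor Bmp7 reached the mean of 0.5 FPKM that the tests required.

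The receptors were listed at under 0.6 FPKM in each of the 20 libraries. At passage 10 Bmpr1a was 31.6 FPKM and Bmpr2 8.48 FPKM, so these low values are given as listed. Bmpr1a (ENSMUSG00000021796, chr14:34410734-34503341, minus strand), the type I receptor that many epithelia and mesenchymes use, lay between 0.196 and 0.587 FPKM in all 20 libraries. Bmpr2 (ENSMUSG00000067336, chr1:59763400-59879014, plus strand), the type II receptor, lay between 0.0231 and 0.146 FPKM. In the order of their group means, every group overlapped the next for both genes. Neither was tested, since their means were below 0.5 FPKM in every fit.

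Both antagonists were higher in embryonic than in adult LG, and Grem1 also separated the embryonic stages. Nog (ENSMUSG00000048616, chr11:89300638-89302332, minus strand) was 3.49, 2.39 and 1.40 FPKM at E17.5 and 2.29, 2.82 and 1.73 FPKM at E19.5. In adult LG it was listed at 0, 0 and 0.541 FPKM, below all 6 embryonic libraries. In the spheres Nog was 0.347 and 3.13 FPKM at day 5, 0.255, 9.13 and 0.395 FPKM at day 7, 0, 8.81 and 0.818 FPKM at day 10 and 0.265, 6.23 and 0.213 FPKM at day 14, in the order of the replicate numbers. Replicate 2 was high and the others low on each day, so the group means of Nog in culture describe neither.

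Grem1 (ENSMUSG00000074934, chr2:113746164-113758646, minus strand), an antagonist typical of mesenchyme, fell stepwise between the tissue groups. It was 4.31, 3.45 and 3.83 FPKM at E17.5, 1.19, 1.77 and 1.75 FPKM at E19.5 and 0, 0 and 0.0316 FPKM in adult LG, the last resting on 1 read in all 3 libraries together. No library of one tissue group reached another group. In the spheres it ranged from 0 to 0.407 FPKM with a median of 0.0580 FPKM over 11 libraries, and all of them were below every embryonic library.

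Of the targets, Id3 had by far the highest listed values in the 20 libraries. At passage 10 Id3, Id2 and Id1 were 18.0, 14.8 and 13.7 FPKM, so this order is given as listed. Id3 (ENSMUSG00000007872, chr4:136143497-136145755, plus strand) was 27.7, 24.9 and 19.1 FPKM at E17.5, 30.7, 39.9 and 45.8 FPKM at E19.5 and 5.55, 6.69 and 18.7 FPKM in adult LG. The adult values were below all embryonic ones, by a narrow margin for adult replicate 3. In the spheres Id3 was 15.1 and 58.7 FPKM at day 5, 17.6, 25.4 and 5.36 FPKM at day 7, 14.9, 55.8 and 25.2 FPKM at day 10 and 34.5, 67.1 and 26.3 FPKM at day 14. Sphere and embryonic values overlapped broadly, and in the order of group means from day 14 (42.6 FPKM) to adult LG (10.3 FPKM) each group overlapped the next.

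Id2 (ENSMUSG00000020644, chr12:25093799-25097140, minus strand) was 2.79, 2.60 and 3.23 FPKM at E17.5, 2.86, 3.79 and 4.70 FPKM at E19.5 and 1.53, 1.16 and 1.77 FPKM in adult LG. Spheres had 0.229 to 0.830 FPKM over the 11 libraries, with a median of 0.368 FPKM. Embryonic, adult and sphere values of Id2 formed 3 levels without overlap on the deposited scale, while the days of culture overlapped. Id1 (ENSMUSG00000042745, chr2:152736251-152737410, plus strand) was 0.997, 1.52 and 1.29 FPKM at E17.5, 0.296, 0.575 and 0.659 FPKM at E19.5 and 0.715, 0.272 and 2.26 FPKM in adult LG. In the spheres it ranged from 0 to 1.57 FPKM, where 1.57 FPKM was 14 reads, and all neighbours in the order of its group means overlapped.

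Between embryonic and adult LG, Bmp4 was lower and both antagonists were higher in the embryo on the deposited scale. The tests were made with limma on log2(FPKM + 1) over all genes that averaged 0.5 FPKM or more in the libraries fitted, and differences on this scale understate the change of low genes. At E17.5, 10039 of 18578 genes (54%) passed an adjusted p of 0.05, and 5 of the 6 members that could be tested did. Since a gene near 0 in one group reaches the mean only through the other, and since most genes passed, this count describes the members and sets them apart from nothing.

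Bmp4 was lower at E17.5 than in adult LG by a log2 difference of -2.19 ± 0.49 (SE; adjusted p = 0.00549). As deposited, the leukocyte markers Ptprc (3.64 to 6.18 FPKM) and Cd3e (0.611 to 0.914 FPKM) in adult LG were also above E17.5. At E17.5 they were 1.17 to 1.34 and 0 to 0.0254 FPKM. Cd79a of the same list was also above, with 4.55 to 4.59 FPKM in adult LG and 2.21 to 2.38 FPKM at E17.5. Adgre1, the remaining one, overlapped, with 7.79 to 18.5 FPKM in adult LG and 5.90 to 8.98 FPKM at E17.5. The myoepithelial marker Cnn1 was 14.6 to 84.7 FPKM in adult LG and 1.14 to 1.28 FPKM at E17.5. Acta2 of the same list overlapped, with 105 to 524 FPKM in adult LG and 139 to 296 FPKM at E17.5. Markers are given on the deposited scale only. The FPKM sums were 2.77e+06, 2.50e+06 and 659916 in adult LG and 348261 to 356538 at E17.5. Summed, the 4 leukocyte markers were 16.9 to 29.7 FPKM in adult LG, 9.45 to 12.5 FPKM at E17.5 and 18.5 to 22 FPKM at E19.5, and the 3 myoepithelial markers 120 to 609 FPKM, 140 to 297 FPKM and 1011 to 1098 FPKM, and their part in the Bmp4 difference was not tested. Nog was higher by 1.52 ± 0.27 (adjusted p = 0.00162), Grem1 by 2.26 ± 0.14 (adjusted p = 5.63e-06), Id2 by 0.64 ± 0.18 (adjusted p = 0.0148) and Id3 by 1.30 ± 0.39 (adjusted p = 0.0203). The Id1 difference was 0.23 ± 0.31 (adjusted p = 0.556), and it passed the test without adult replicate 3 (0.61, adjusted p = 0.0228) and with equal FPKM sums (1.02, adjusted p = 0.0319). The Id3 call was lost when any of E17.5 replicate 1, E17.5 replicate 2, adult replicate 1 or adult replicate 2 was left out (adjusted p = 0.0586 to 0.0691), and the Id2 call without E17.5 replicate 3 (adjusted p = 0.0553). With all 20 libraries in 1 fit the calls of Nog (adjusted p = 0.165) and Id3 (adjusted p = 0.0853) were lost. Bmp7, which had too low a mean to be tested, passed without the filter on low values, higher at E17.5 by 0.29 (adjusted p = 0.000972, over 39835 genes). Bmp4 depended on the scaling. Its difference was -0.47 (adjusted p = 0.591) when each library was rescaled to the same FPKM sum and -1.40 (adjusted p = 0.117) on recovered reads.

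E19.5 LG against adult LG gave the same signs for these genes except Id1. Of 18578 genes 54.2% passed, and 5 of 6 tested members did. Bmp4 was lower at E19.5 by a log2 difference of -2.34 ± 0.49 (adjusted p = 0.00404), and again the call was lost with equal FPKM sums (-0.82, adjusted p = 0.364) and on recovered reads (-1.65, adjusted p = 0.0742). Nog was higher by 1.49 ± 0.27, Grem1 by 1.34 ± 0.14, Id2 by 0.93 ± 0.18 and Id3 by 1.98 ± 0.39, with adjusted p of 0.00190, 0.000108, 0.00243 and 0.00281, and these 4 calls held without any single library, while that of Nog was lost with all 20 libraries in 1 fit (adjusted p = 0.172). The Id1 difference was -0.36 ± 0.31 (adjusted p = 0.364), and it turned to 0.15 with equal FPKM sums and to 0.02 without adult replicate 3. Both comparisons use the same adult libraries.

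The scaling question touches all genes of these comparisons. The median log2 difference of all genes between E17.5 and adult LG was 0.05 as deposited, 1.22 with equal FPKM sums and 0.65 on recovered reads. Relative to that median, Bmp4 stood at -2.24, -1.70 and -2.05, Nog at 1.47, 0.89 and 1.17, Grem1 at 2.21, 1.69 and 1.99, Id2 at 0.59, 0.62 and 0.61 and Id3 at 1.25, 1.92 and 1.54. For these 5 genes the sign relative to the median gene was the same under the 3 scalings, and for Id1 it changed from 0.18 to -0.20 and -0.04.

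**Figure D2:**
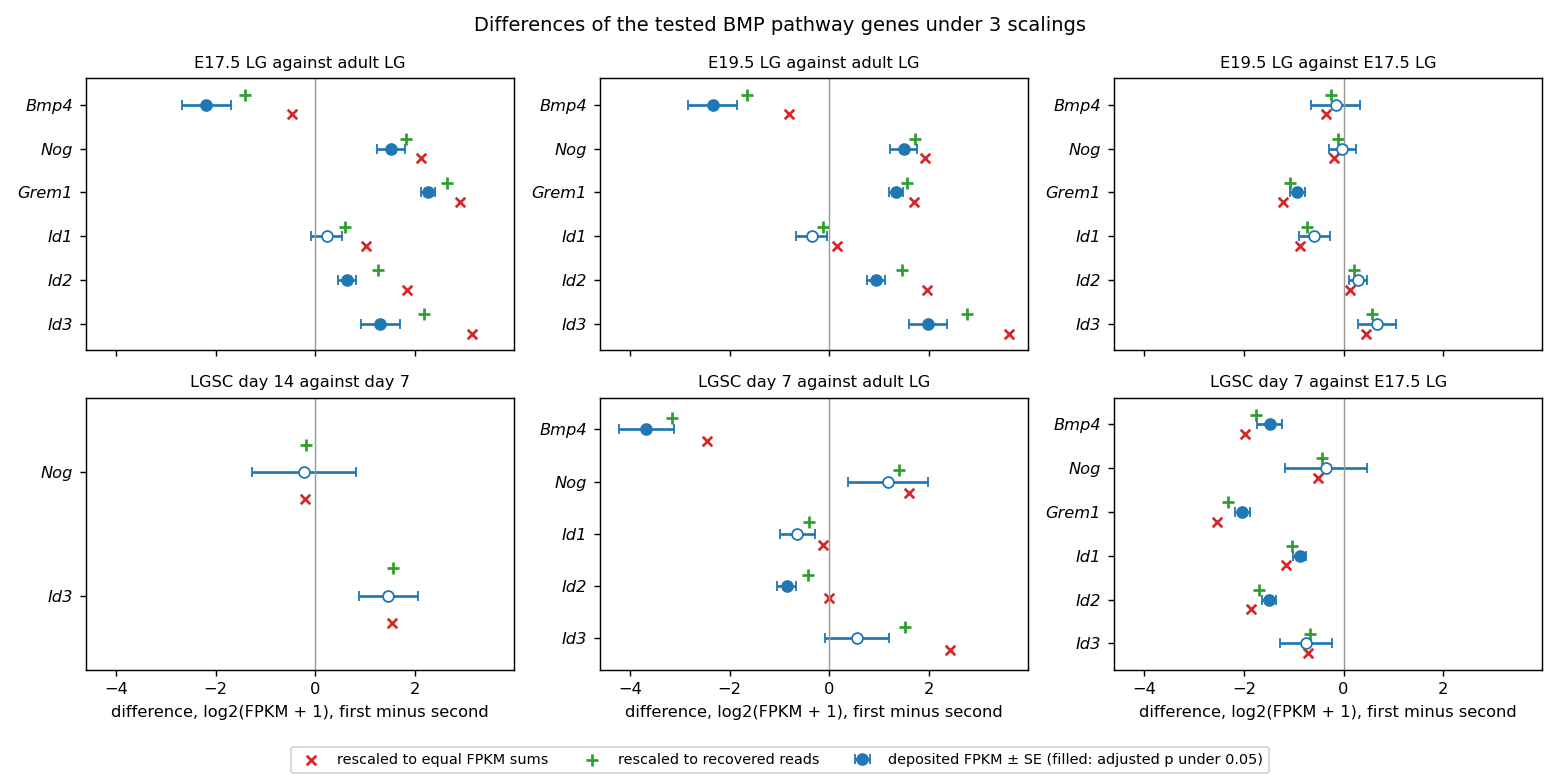
Differences of the tested members on the log2(FPKM + 1) scale (first group minus second) in 6 comparisons; circles are the deposited FPKM with SE bars, filled at an adjusted p under 0.05, crosses equal FPKM sums and plus signs recovered reads. Bmp4 at E17.5 against adult LG moved from -2.19 to -0.47 with equal FPKM sums, while Grem1 stayed between 2.26 and 2.91.

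Of the wider list more genes were higher than lower in embryonic LG. At E17.5, 29 of its 49 genes could be tested, of which 16 were higher than in adult LG, 2 were lower and 11 did not pass, and their median log2 difference was 0.73 against 0.05 over all genes. By role, 3 of 5 ligands, 3 of 6 receptors, 8 of 10 antagonists, 2 of 5 SMADs and none of 3 targets were higher. Over all genes 29.1% were higher and 24.9% lower, and with equal FPKM sums 91.5% of all calls were higher. The largest rises were Bmper, which binds BMPs outside the cell (3.28), the ligands Bmp3 (3.21) and Gdf10 (3.10), the antagonist Sostdc1 (2.73) and the type I receptor Bmpr1b (2.49). The 2 that were lower as deposited were the co-receptors Rgmb (-1.26) and Eng (-0.94), and both turned to higher with equal FPKM sums (0.76 and 0.33).

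Gdf10 had the highest listed level of these, with 233, 200 and 153 FPKM at E17.5. It was 118, 92.6 and 100 FPKM at E19.5 and 15.7, 28.6 and 22.1 FPKM in adult LG. Bmper was 22.1 to 29.9 FPKM at E17.5, 21.8 to 27.2 FPKM at E19.5 and 1.12 to 3.33 FPKM in adult LG. Neither gene overlapped between embryo and adult. The summed mesenchymal markers were also higher in all embryonic libraries, as given above, and their part in these differences and in that of Grem1 was not tested.

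At E19.5, 14 of the 29 tested genes of the wider list were higher than in adult LG, 1 was lower and 14 did not pass, with a median of 0.58 against 0.09 over all genes. Antagonists were again 8 of 10, ligands 3 of 5, receptors 1 of 6, SMADs 1 of 5 and targets 1 of 3. Over all genes 30.3% were higher and 23.9% lower, and with equal FPKM sums 91.6% of all calls were higher. The largest rises were Sostdc1 (3.87), Bmp3 (3.32), Bmper (3.11), Gdf10 (2.21) and the ligand Bmp5 (2.0). Rgmb was lower as deposited (-1.23) and higher with equal FPKM sums (0.58).

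Between the embryonic stages a single member passed. Of all genes 1.74% passed, and of the 6 members tested only Grem1 did, lower at E19.5 by a log2 difference of -0.93 ± 0.14 (adjusted p = 0.0235). The call was lost without any one of the 6 embryonic libraries (adjusted p = 0.0607 to 0.124) and with a pseudocount of 0.1 (adjusted p = 0.0793). Id1 was lower without overlap (-0.59 ± 0.31, adjusted p = 0.436) and Id3 was higher without overlap (0.67 ± 0.39, adjusted p = 0.481), and neither passed. The share of all genes without overlap between the stages was not counted. Without the filter on low values Bmp7 passed as well (-0.27, adjusted p = 0.0365, over 39835 genes), a result that rests on 8 reads in each E17.5 library and 0 to 2 at E19.5. None of the 29 tested genes of the wider list passed by limma, and 6 of them had an unadjusted p under 0.05.

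In culture no member passed a test of time. Only Nog and Id3 averaged 0.5 FPKM or more over the 11 passage 2 libraries. Their slopes were -0.02 ± 0.11 (adjusted p = 0.959) and 0.11 ± 0.08 (adjusted p = 0.503) in log2 units per day, in a fit where 2.14% of 15584 genes passed. With the replicate number as a block, 783 genes passed in place of 334, and neither Nog (adjusted p = 0.899) nor Id3 (adjusted p = 0.148) was among them. None of the 21 tested genes of the wider list passed by limma, and among those only the ligand Bmp3 had an unadjusted p under 0.05, with a slope of -0.07 per day.

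Id3 was higher at day 14 than at day 7 in every pair of libraries, but the difference did not pass the test. The values at day 14, 34.5, 67.1 and 26.3 FPKM, lay above the 17.6, 25.4 and 5.36 FPKM of day 7 without overlap. The closest pair was 26.3 against 25.4 FPKM, and the share of all genes that separate in this way was not counted. The log2 difference was 1.47 ± 0.59 (adjusted p = 0.50, and adjusted p = 0.25 with the replicate block). In this comparison 0% of 15744 genes passed by limma and 0 by limma-voom, while 1557 and 1107 genes had an unadjusted p under 0.05, Id3 among the former. The Nog difference was -0.23 ± 1.04 (adjusted p = 0.953) and changed sign when day 7 replicate 2 (0.75), day 14 replicate 1 (0.18) or day 14 replicate 3 (0.21) was left out.

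Replicate 2 of the spheres stood apart on each of the 4 days, which was noticed in the values and is given as a description. At day 5 it is set against replicate 1 alone. Nog in replicate 2 was 9.03, 28.1, 21.5 and 26.1 times the mean of the other libraries at days 5, 7, 10 and 14, and Id3 3.89, 2.21, 2.78 and 2.21 times. Of the 15584 genes that averaged 0.5 FPKM or more in culture, 12.1% were highest in replicate 2 on all 4 days, and the 2 members above that mean, Nog and Id3, were both among them. Of the 10 members, Bmp4, Grem1 and Id2 also were highest in it on all 4 days, at levels under 0.9 FPKM. They averaged under 0.5 FPKM in culture, so the 12.1% does not cover them. Their values rested on at most 6, 13 and 18 reads in any passage 2 sphere library.

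In the wider list 9 of 21 genes above that mean had this pattern, namely Atoh8, Bmp6, Bmp8a, Fst, Msx1, Msx2, Smad6, Sostdc1 and Twsg1. The ligand Gdf5, also above that mean, was lowest in replicate 2 on all 4 days. It was 0, 0.0551, 0.224 and 0.0484 FPKM there and 0.241 to 2.59 FPKM in the others. Bmp6, a ligand, was 36.1, 28.4, 32.2 and 29.7 FPKM in replicate 2 and 5.31 to 12.4 FPKM in the others. Sostdc1, an antagonist of BMP and Wnt signals, was 230, 449, 566 and 561 FPKM in replicate 2 and 24.0 to 177 FPKM in the others. Msx2, a homeobox gene that BMPs induce in many tissues, was 4.05, 4.8, 6.69 and 4.11 FPKM against 0.103 to 1.37 FPKM. Smad6, an inhibitory SMAD that BMPs also induce, reached 66.4 FPKM in replicate 2 at day 14 against 18.1 and 19.0 FPKM.

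These genes did not move alone. Krt18, an epithelial keratin, was 130 to 176 FPKM in the replicate 2 libraries and 689 to 1734 FPKM in the others, the basal markers Krt14, Krt5 and Trp63 summed to 11.0 to 20.4 FPKM against 4.91 to 13.4 FPKM, and the ductal markers to 1.07 to 3.69 FPKM against 7.39 to 18.5 FPKM. The myoepithelial markers summed to 1.02 to 4.77 FPKM in replicate 2 and to 9.35 to 181 FPKM in the others. Mesenchymal markers were at or below 1.41 FPKM in both. The part of these differences in the BMP genes was not tested. Without the 4 replicate 2 libraries the Id3 slope was 0.16 per day (adjusted p = 0.249), and its difference between day 14 and day 7 was 1.51 without the replicate 2 libraries of those days (adjusted p = 0.517).

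**Figure D3:**
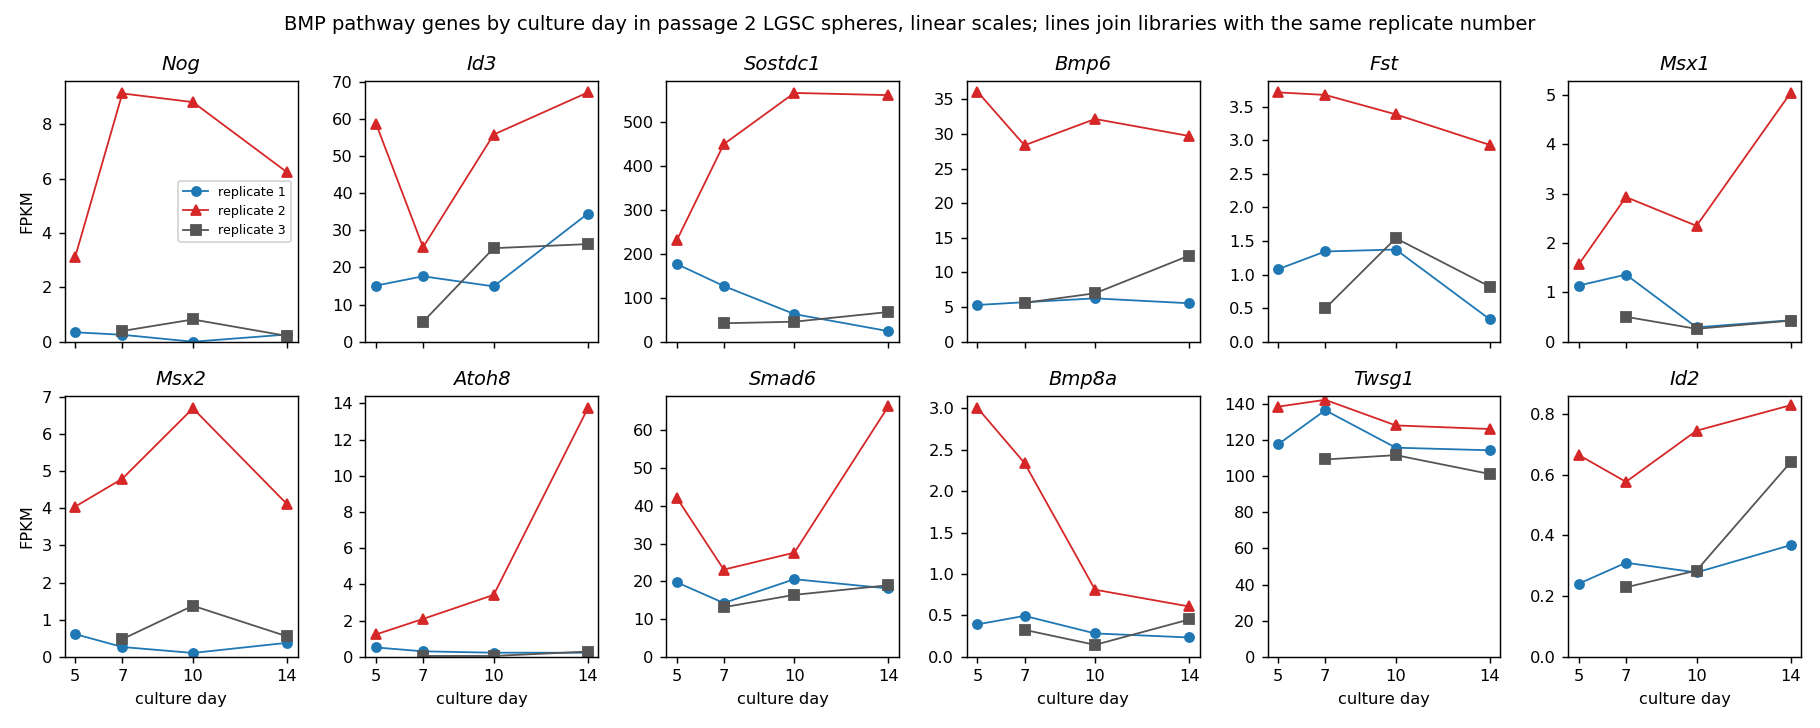
FPKM (linear scales) against culture day for Nog, Id3, Id2 and 9 genes of the wider list in the 11 passage 2 sphere libraries, with lines joining libraries of the same replicate number. Replicate 2 was the highest on all 4 days for each gene shown, as for Nog with 3.13 to 9.13 FPKM against 0 to 0.818 FPKM. Only genes with this pattern are shown, and other genes of the lists lacked it. Replicate 3 has no day 5 value.

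Day 7 spheres were set against adult LG because the spheres were grown from adult gland. Of 17698 genes 35.2% passed, and of the 5 members tested 2 did, both lower in the spheres. Bmp4 was lower by a log2 difference of -3.67 ± 0.55 (adjusted p = 0.00361), and it passed with equal FPKM sums (-2.45, adjusted p = 0.0336) and on recovered reads (-3.17, adjusted p = 0.0177). Id2 was lower by -0.86 ± 0.20 (adjusted p = 0.0175), but with equal FPKM sums the difference was -0.01 (adjusted p = 0.990) and on recovered reads -0.44 (adjusted p = 0.297). Id2 also failed without day 7 replicate 1 (adjusted p = 0.0645) or replicate 3 (adjusted p = 0.0782). The differences of Nog (1.17 ± 0.80, adjusted p = 0.292), Id1 (-0.64 ± 0.35, adjusted p = 0.198) and Id3 (0.55 ± 0.64, adjusted p = 0.533) did not pass, and Id3 passed with equal FPKM sums (2.43, adjusted p = 0.0389).

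In the wider list 26 genes were tested in this comparison, of which 6 were higher in the spheres, 5 were lower and 15 did not pass, with a median of 0.28 against -0.08 over all genes, of which 14.2% were higher and 21.1% lower. The largest rises were Sostdc1 (5.41), the activin and BMP binder Fstl3 (2.07), Id4, the remaining member of the Id family (1.43), the type I receptor Acvr1 (1.23) and the ubiquitin ligase Smurf1 (0.97). The falls included Gdf10 (-4.45), the ligand Gdf5 (-2.48), Eng, a co-receptor of endothelium (-2.05), and Rgmb (-1.11), which was higher with equal FPKM sums (0.98), where Gdf10 alone of the 5 still passed. Sostdc1 rose from 1.06 to 4.05 FPKM in adult LG to 42.0, 127 and 449 FPKM at day 7, where the highest value was replicate 2. Endothelial and mesenchymal markers were near 0 in the spheres, and their part in the falls was not tested.

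Against E17.5 LG, 4 of 6 tested members were lower in day 7 spheres, where 47.6% of 17391 genes passed. Grem1 was lower by a log2 difference of -2.03 ± 0.15 (adjusted p = 0.000138), Id2 by -1.50 ± 0.14 (adjusted p = 0.000364), Bmp4 by -1.49 ± 0.24 (adjusted p = 0.00326) and Id1 by -0.88 ± 0.13 (adjusted p = 0.00218). All 4 calls held under the 3 scalings and without any single library, and that of Id1 was lost with all 20 libraries in 1 fit (adjusted p = 0.0555). The Id3 difference was -0.75 ± 0.52 (adjusted p = 0.275). Nog did not pass (-0.35 ± 0.82, adjusted p = 0.754), and without day 7 replicate 2 it was lower by -1.33 (adjusted p = 0.0111).

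Of the wider list 30 genes were tested against E17.5 LG, of which 5 were higher in the spheres, 14 were lower and 11 did not pass, with a median of -0.40 against -0.10 over all genes, of which 18.1% were higher and 29.6% lower. The largest falls were Gdf10 (-7.55), Bmper (-4.20), Gdf5 (-2.54), Bmp3 (-2.41) and the target Atoh8 (-2.39), and 4 of 6 ligands and 5 of 9 antagonists were among those that fell. The rises were Sostdc1 (2.68), Smad1, which carries the BMP signal (1.12), Fstl3 (1.09), Acvr1 (0.67) and Smurf1 (0.45). Gdf10 was 0 to 0.118 FPKM in the day 5 and day 7 spheres against 153 to 233 FPKM at E17.5.

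The passage 10 library gave another picture of the receptors, of Bmp2 and Bmp7 and of Id1 and Id2. In it Bmpr1a was 31.6 FPKM, Bmpr2 8.48 FPKM, Bmp7 18.4 FPKM, Id1 13.7 FPKM, Id2 14.8 FPKM and Bmp2 1.29 FPKM. Each of these 6 values was above the highest of the 20 other libraries, which was 0.587, 0.146, 0.403, 2.26, 4.70 and 0.132 FPKM in the same order. Id3 (18.0 FPKM) lay within the range of passage 2 day 7, whereas Nog (0.174 FPKM), Bmp4 (0.0567 FPKM) and Grem1 (listed at 0) were low. With 1 library and another gene list this comparison has no test. The share of all genes that exceeded every other library in this way was not counted.

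The gap between the passage 10 library and the others was shared by much of the genome. Of 7986 genes with at least 5 FPKM at passage 10, 48.6% had a passage 2 day 7 mean under 0.1 times that value, 12.1% were listed at 0 at day 7, and 38.9% had at least 0.5 times the value. The ratios had a broad low peak and a narrow high one. Among the members at 5 FPKM or more, Bmp7, Bmpr1a, Bmpr2, Id1 and Id2 lay under 0.1, with ratios of 0.00788 to 0.0251, and Id3 had a ratio of 0.897. In the wider list Acvr2a, Crim1, Rgma, Smad5, Smurf1 and Smurf2 were under 0.1, 6 of 14. Acvr2a (7.90 FPKM at passage 10) and Crim1 (10.1 FPKM) were listed at 0 in all 20 libraries, as were Gapdh, a gene that every cell uses, and Epcam. Gapdh was above 0 at passage 10 but under 5 FPKM there too. A low listed value for this gene was therefore not confined to the 20 libraries, and the passage 10 values are also given as listed. Low values of Bmpr1a, Bmpr2, Bmp2, Bmp7, Id1 and Id2 in the 20 libraries, tissue included, are therefore given as listed, not as low expression. Bmp4, Nog and Grem1 were low at passage 10 too, so that library does not show whether their listed values are affected. Passage, gene list and library cannot be told apart here.

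**Figure D4:**
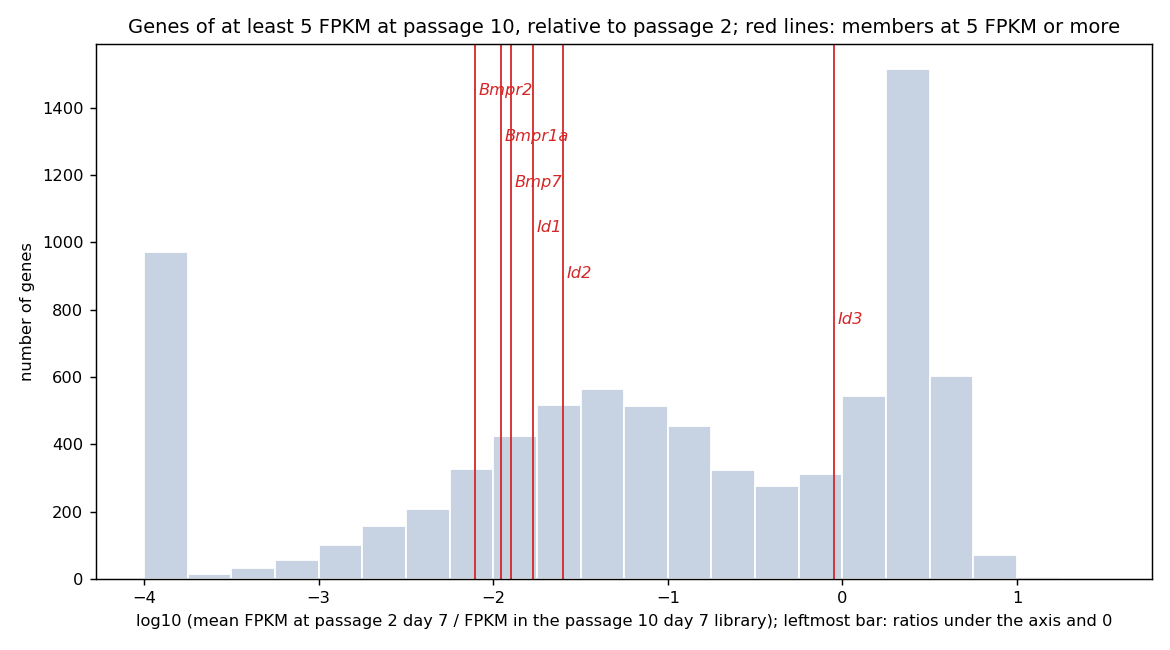
Number of genes (of 7986 with at least 5 FPKM at passage 10) by the log10 ratio of the passage 2 day 7 mean to the passage 10 value; the leftmost bar holds ratios under the axis and 0. Red lines mark the 6 members at 5 FPKM or more, of which 5 lay at ratios of 0.00788 to 0.0251 and Id3 at 0.897.

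The genes whose pattern was most like each member were found by Pearson's r of log2(FPKM + 1) over the 20 libraries, among 5732 genes averaging 5 FPKM or more, for members averaging 1 FPKM or more. For Bmp4 they were Pcp4l1 (0.96), H2-Aa (0.95) and Cd74 (0.95), of which the last encode parts of MHC class II presentation. For Nog they were Stfa2 (0.96), Stfa1 (0.93) and Dgat2 (0.92), where Stfa1 and Stfa2 are close copies whose reads may be split between them. They were for Id2 Rdm1 (0.98), Egr1 (0.97) and Kcne4 (0.97), and for Id3 Efemp1 (0.85), Ccdc71l (0.82) and Smad6 (0.82), the last a gene of the wider list. These are descriptions over libraries that share tissue, culture and scaling.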

How the data were processed

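RNA-seq tables of 21 libraries were used, 1 per sample. The authors aligned reads and counted them per gene, and the submitters' processing notes name CASAVA 1.8, HISAT2 2.0.5, featureCounts 1.5.0-p3 and the build NCBIM37 without giving their order. The authors deposited 1 value per gene, read here as FPKM from its dependence on gene length and its steps, and what made the FPKM is not given in the sources used here. Of 52636 Ensembl identifiers 52489 were in GENCODE M21 (GRCm38), from which symbols and coordinates were taken, so the positions are not those of the authors' build.

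Reads were recovered from the steps of the values, and 92.6% to 93.6% of low genes came out whole to within 0.01 in the 20 passage 2 and tissue libraries. Groups came from the sample labels. Tests used limma 3.58.1 (lmFit and eBayes with trend, R 4.3.3) on log2(FPKM + 1). Genes averaging under 0.5 FPKM in the libraries fitted were left out, and p-values were adjusted by the Benjamini-Hochberg method over all genes, with a threshold of 0.05. The 3 tissue groups shared 1 fit of 9 libraries, and the other comparisons used their own libraries. The study tested counts with DESeq2, which was not used here because the tables hold no counts. Alternatives were a pseudocount of 0.1, no filter, equal FPKM sums, recovered reads, limma-voom, all 20 libraries in 1 fit, a replicate block, log2 of the day, days 7, 10 and 14 only and each library left out. Scaling to recovered reads and leaving out all replicate 2 libraries, or day 7 replicate 2 with adult replicate 3, were added after seeing the data. Libraries of the same replicate number deviated together in culture (correlations of 0.260 to 0.719 over 15 pairs of libraries), so the block pairs them there. Pairs of different numbers had correlations of -0.6055 to 0.438, so the ranges overlapped, with means of 0.457 for the same and -0.217 for different numbers.

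The members and lists were chosen with earlier results of these data known. All members are reported, and of the wider list the 5 largest rises and falls per comparison, apart from a gene that is not reported here by name. The fits were also run on simulated data, with reads drawn independently for each library from a common mean per gene, apart from the changes put in. Those data held neither the shared deviations of replicate numbers nor the different composition of the adult libraries. The run therefore does not show how the fits behave under either. Tables were handled with pandas 2.3.3 and numpy 2.4.6 in Python 3.11.15, and matplotlib 3.10.9 drew the figures.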

Additional observations from a re-analysis of the deposited data

Results flagged for a closer look

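The passage 10 library, which entered no comparison, held 6 members above every one of the 20 other libraries. They were Bmp2 at 1.29 FPKM, Bmp7 at 18.4 FPKM, Bmpr1a at 31.6 FPKM, Bmpr2 at 8.48 FPKM, Id1 at 13.7 FPKM and Id2 at 14.8 FPKM. These values stand for 109, 1755, 4773, 3628, 377 and 858 reads, against at most 4, 15, 23, 20, 20 and 90 reads in any of the other libraries. The passage 10 library had 25181804 recovered reads, against 6434734 to 9258020 in the others. Of 7986 genes with at least 5 FPKM at passage 10, 48.6% had a passage 2 day 7 mean under 0.1 times that value. The share of all genes above every other library was not counted. No test is possible with 1 library, and its gene list differed from that of the others.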

How the results depend on the processing

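Counts of calls moved with the setting, on all genes and on the members. At E17.5 against adult LG, 3 members passed with all 20 libraries in 1 fit in place of 5. Between E19.5 and E17.5, 323 genes passed in the reported fit, 162 with a pseudocount of 0.1, 157 with equal FPKM sums, 134 on recovered reads, 100 with the replicate block, 511 with all 20 libraries and 50 to 197 without a single library. Grem1 was the member called there, and 0 members passed with the pseudocount of 0.1, with the block and without any single library (0 to 0), against 2 with no filter. For the culture slope 334 genes passed, 783 with the replicate block, 82 with no filter, 0 for days 7, 10 and 14 only by limma (1833 at an unadjusted p under 0.05) and 11 to 384 without a single library, namely 11 and 81 without day 5 replicate 1 or 2, 91 and 197 without day 7 replicate 2 or 3, 217 and 102 without day 10 replicate 1 or 3, and 175 and 37 without day 14 replicate 2 or 3. Between day 14 and day 7, 50 genes passed with all 20 libraries. At day 7 against adult LG, 6238 genes passed, 10549 with equal FPKM sums and 3770 to 8135 without a single library, fewest without day 7 replicate 3, then 4151 without adult replicate 2. There 1 member passed with the replicate block and on recovered reads, and 1 to 2 without a single library.

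Some single genes that did not pass changed direction. Id1 went from -0.065 to 0.61 at E17.5 and from -0.65 to 0.024 at E19.5 against adult LG without a single library, and to 0.15 at E19.5 with equal FPKM sums. Nog went from -0.26 to 0.19 between E19.5 and E17.5, from -0.10 to 0.034 per day, from -1.07 to 0.75 between day 14 and day 7, and from -1.33 to 0.18 at day 7 against E17.5, and its slope was 0.0099 with the replicate block. The block changed no other member call than those of Grem1 between E19.5 and E17.5 (adjusted p = 0.0790) and Id2 at day 7 against adult LG (adjusted p = 0.0620), and outside culture the numbers are only shared, since libraries of the same number had correlated deviations of -0.0775 to 0.0663 in tissue and -0.0166 to 0.0279 between day 7 and adult LG. All 33 member results kept their side of the threshold and direction with limma-voom and with no filter. Without the filter a gene's difference stays the same, so its direction could not change. The limma-voom fit kept the deposited scale, so it does not show dependence on scaling. Bmp4 at E17.5 and E19.5 against adult LG passed in that fit but not when scaled to recovered reads.

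The share of calls that were higher moved with scaling. It was 53.8% as deposited, 91.5% with equal FPKM sums and 79.8% on recovered reads for E17.5 against adult LG, 55.9%, 91.6% and 79.5% for E19.5, 64.1%, 43.3% and 53.0% for E19.5 against E17.5, 30.2%, 40.3% and 40.4% for the slope and 40.2%, 88.8% and 73.7% for day 7 against adult LG. The cause was not tested. Bmp2, Bmp7, Bmpr2 and Id1 rested on at most 20 reads in any passage 2 or tissue library, which limits the precision of their values.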
